A study of Arabidopsis thaliana with 18 samples.

Results

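The triple mutant *bdrs* of *Arabidopsis thaliana* was compared over all genes with the single mutants *bdr2* and *bdr3*, whose group means were averaged. It used 9 of the 18 libraries of the series, 3 from each of these 3 groups, chosen by their labels, and left out the wild type, so that a gene whose level is odd only in the wild-type line cannot enter. All plants were of the Col-0 ecotype, and whole seedlings were harvested after 8 days at 21 °C in days of 16 h of light and 8 h of dark, following 4 days of cold at 4 °C. The *bdr2* group carried the insertion CS852350 and the *bdr3* group the insertion SALK_059905. The *bdrs* group was labelled as the triple mutant with no allele names, and the methods of the study build it from insertions in *BDR1*, *BDR2* and *BDR3*. Each control therefore shares 1 mutation with *bdrs*, and an insertion in *BDR1* (SALK_142108C in the *bdr1* group) was carried by *bdrs* alone among these groups. Each genotype was represented by 1 line. The methods of the study describe the libraries as biological triplicates, and the labels do not say how the cultures behind them were kept apart. The p-values therefore measure only the spread between these 3 libraries of a group, and not that between lines of a genotype.

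BORDER (BDR) proteins combine a SPOC domain with a domain related to the middle part of TFIIS, an RNA polymerase II elongation factor, and sit on chromatin at the borders of genes. In a compact genome like that of *Arabidopsis*, many genes begin a short way beyond the end of another gene on the same strand, and polymerase that is not stopped at the end of the first can run into the start of the second. The comparison asks which transcripts differ once all 3 BDR genes are mutated, beyond what *bdr2* or *bdr3* alone shows. The *bdr1* single mutant is not among the controls, so a difference that the *bdr1* mutation gives by itself also enters. Levels in *bdr1* are set beside the results below for some of the lower genes and for *FLC*, and not for the other higher genes.

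The 9 libraries held 13274551 to 20036450 counted reads. Ribosomal RNA genes took 2.00% of the counts of *bdrs* 1 (the number is the replicate number in the labels) and 0.137% to 0.845% of the other 8. The leaf markers were present in every library, with 7.30% to 12.4% of counts in 14 genes of light harvesting, and the root markers took 0.0215% to 0.0297%. Leaving out *bdrs* 2 lowered the number of called genes most and leaving out *bdrs* 1 raised it most, and both are given below.

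The mutated genes were examined first. The locus of *BDR1*, AT5G25520, lies at 8885088 to 8889904 of chromosome 5 in TAIR10.1. In *bdrs* its level was 3.26, 4.08 and 3.23 CPM (reads scaled to library size), against 26.0 to 30.2 CPM in *bdr2* and 25.2 to 36.0 CPM in *bdr3*. Its log2 fold change, always *bdrs* minus the mean of the *bdr2* and *bdr3* means, was −3.04 ± 0.17 (SE of the fit, edgeR adjusted p = 1.80e-07). *BDR2* (AT5G11430) stood at 7.60 to 8.07 CPM in *bdrs* and 5.68 to 7.98 CPM in *bdr2*, which share its insertion, and at 15.5 to 19.3 CPM in *bdr3*. Against *bdr3* it was lower (−1.10, edgeR adjusted p = 0.00104), against *bdr2* it did not pass the test (0.22, edgeR adjusted p = 0.734), and in the pooled contrast the value was −0.44 (edgeR adjusted p = 0.124). *BDR3* (AT2G25640) stood at 6.52 to 8.83 CPM in *bdrs*, 7.29 to 10.8 CPM in *bdr2* and 5.28 to 8.21 CPM in *bdr3*, with overlapping groups, and reads summed over the whole gene cannot show its insertion.

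Of 19640 genes tested, 527 rose in *bdrs* (2.68% of those tested) and 596 fell (3.03%), or 1123 in all (5.72%), with an edgeR adjusted p under 0.05 as the threshold throughout. More than 2-fold differences were called for 314 higher and 380 lower genes, while the median log2 fold change over all tested genes was 0.001. The 3 *bdrs* libraries lay above all 6 control libraries in 869 genes (4.42%) and below them in 1000 (5.09%). Of the called genes, 428 of the higher and 576 of the lower were separated in this way. Against *bdr2* alone 301 genes were higher (1.53%) and 466 lower (2.37%), 767 in all (3.91%). Against *bdr3* alone 362 were higher (1.84%) and 475 lower (2.42%), 837 in all (4.26%). These contrasts share the *bdrs* libraries. The number higher in the pooled contrast was 269 without *bdrs* 2 and 747 without *bdrs* 1, and the number lower was 369 and 795.

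The genes that fell furthest in *bdrs* began just beyond another gene on the same strand, and that gene stood at about the same level in all 3 groups. A gene is called tandem here where its nearest upstream neighbour lies on its own strand. All of the 12 lower genes with the largest changes were tandem, from an overlap of 4 bp to a distance of 201 bp, and the upstream neighbour passed the test in none of the 12. The stretches between gene and neighbour, from RefSeq TAIR10.1 and written 5′ to 3′ on the strand of the genes, are shown for 5 of the 6 pairs whose downstream gene had the smallest p, because each holds all the sequence between the 2 annotated genes. The sixth pair, *PBA1* and AT4G31310, is separated by 2 bp. Capitals mark the letters TATAAA.
EIF3A to AT4G11410 (chr4:6947414-6947475, minus strand): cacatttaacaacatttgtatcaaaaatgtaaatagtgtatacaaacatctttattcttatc
SHM1 to NdhM (chr4:17831620-17831730, minus strand): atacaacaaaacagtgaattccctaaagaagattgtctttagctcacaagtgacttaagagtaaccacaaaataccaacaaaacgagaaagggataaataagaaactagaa
MAP2B to AT3G59980 (chr3:22155642-22155704, minus strand): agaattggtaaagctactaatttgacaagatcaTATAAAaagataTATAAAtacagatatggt
AT5G52380 to AT5G52370 (chr5:21261337-21261352, minus strand): aacaaaacccacctag
AT1G09920 to AT1G09910 (chr1:3224542-3224683, minus strand): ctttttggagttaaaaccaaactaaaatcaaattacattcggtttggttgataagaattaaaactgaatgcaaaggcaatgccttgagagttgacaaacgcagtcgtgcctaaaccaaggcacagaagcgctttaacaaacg
The stretches are short and 22.6% to 43.8% G and C, and TATAAA occurs in 1 of the 5. In the 250 bases before the gene start, TATAAA on the gene strand was found in 24.3% of the 325 lower genes whose tandem neighbour ended 0 to 500 bp away, in 27.3% of all 4241 tested genes so arranged, and in 31.2% of all tested genes with a known neighbour. The letters TGGGCC or GGCCCA, a core of site II elements of housekeeping promoters, were found in 11.1%, 16.5% and 16.6%. Such matches are descriptions of sequence.

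AT4G11410, annotated as an NAD(P)-binding Rossmann-fold protein, had the smallest p. It stood at 13.8 to 15.3 CPM in *bdr2* and 11.3 to 11.6 CPM in *bdr3*, and at 0.148, 0.0959 and 0.180 CPM in *bdrs*. The *bdrs* libraries were thus nearly empty of it, and the log2 fold change was −6.47 ± 0.24 (edgeR adjusted p = 3.81e-09). Its neighbour *EIF3A*, a subunit gene of a translation initiation factor, ends 62 bp before it and stood at 67.4, 82.1 and 87.5 CPM in *bdrs* and 67.9 to 126 CPM in the controls (−0.15 ± 0.17, edgeR adjusted p = 0.788). AT4G31310, of the AIG2-like family, stood at 10.8 to 17.3 CPM in the controls and 0.222, 0.432 and 0.359 CPM in *bdrs* (−5.36 ± 0.28, edgeR adjusted p = 1.00e-07), while the proteasome subunit gene *PBA1* before it stood at 120 to 126 CPM in *bdrs* and 86.0 to 125 CPM in the controls (0.21 ± 0.13).

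*NdhM* (AT4G37925, chromosome 4, 17830533 to 17831619) encodes a subunit of the chloroplast NADH dehydrogenase-like complex, which passes electrons around photosystem I. It stood at 39.8 to 54.1 CPM in the controls and 4.15, 4.08 and 4.79 CPM in *bdrs* (−3.41 ± 0.16, edgeR adjusted p = 5.47e-08). *SHM1*, the photorespiratory serine hydroxymethyltransferase gene 111 bp before it, stood at 950 to 1404 CPM in *bdrs* and 1062 to 1309 CPM in the controls (−0.05 ± 0.16). The upstream gene is the more abundant of the pair: per length of exon, *SHM1* stood at 602 RPKM and *NdhM* at 46.1 RPKM in the controls.

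AT5G52370, annotated as a mitochondrial-type 28S ribosomal S34 protein, went the other way: its own control level of 14.9 RPKM exceeded the 2.05 RPKM of its neighbour AT5G52380. It stood at 11.3 to 13.8 CPM in the controls and 1.33, 0.720 and 0.778 CPM in *bdrs* (−3.77 ± 0.21, edgeR adjusted p = 1.80e-07), and AT5G52380 at 1.56 to 2.80 CPM in the controls and 2.00 to 2.81 CPM in *bdrs* (0.22 ± 0.21). AT1G09910, a rhamnogalacturonate lyase family gene, stood at 10.2 to 17.3 CPM in the controls and 0.222, 0.0480 and 0.299 CPM in *bdrs* (−6.19 ± 0.36, edgeR adjusted p = 2.12e-07), with AT1G09920 at 0.27 ± 0.13. AT3G59980, which codes for an OB-fold nucleic acid-binding protein, stood at 18.4 to 24.2 CPM in the controls and 1.63 to 2.33 CPM in *bdrs* (−3.38 ± 0.18), and the methionine aminopeptidase gene *MAP2B* before it at −0.02 ± 0.12. AT3G59980 also overlaps AT3G59970 on the other strand, and its reads are less certain because the sources used here do not give the strand setting of the counting. In each of the 6 pairs, *bdrs* and control libraries did not overlap in the downstream gene and overlapped in the upstream gene (edgeR adjusted p of the 6 neighbours 0.365 to 0.976). With all 18 libraries scaled together, the *bdr1* single mutant held 9.23 CPM of AT4G11410, 40.2 CPM of *NdhM* and 5.64 CPM of AT1G09910 (n = 3), each above every *bdrs* library. AT4G11410, AT1G09910 and AT4G31310 (9.60 CPM) in *bdr1* also lay below every control library. *NdhM*, AT3G59980 and AT5G52370 overlapped the controls there.

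**Figure D1:**
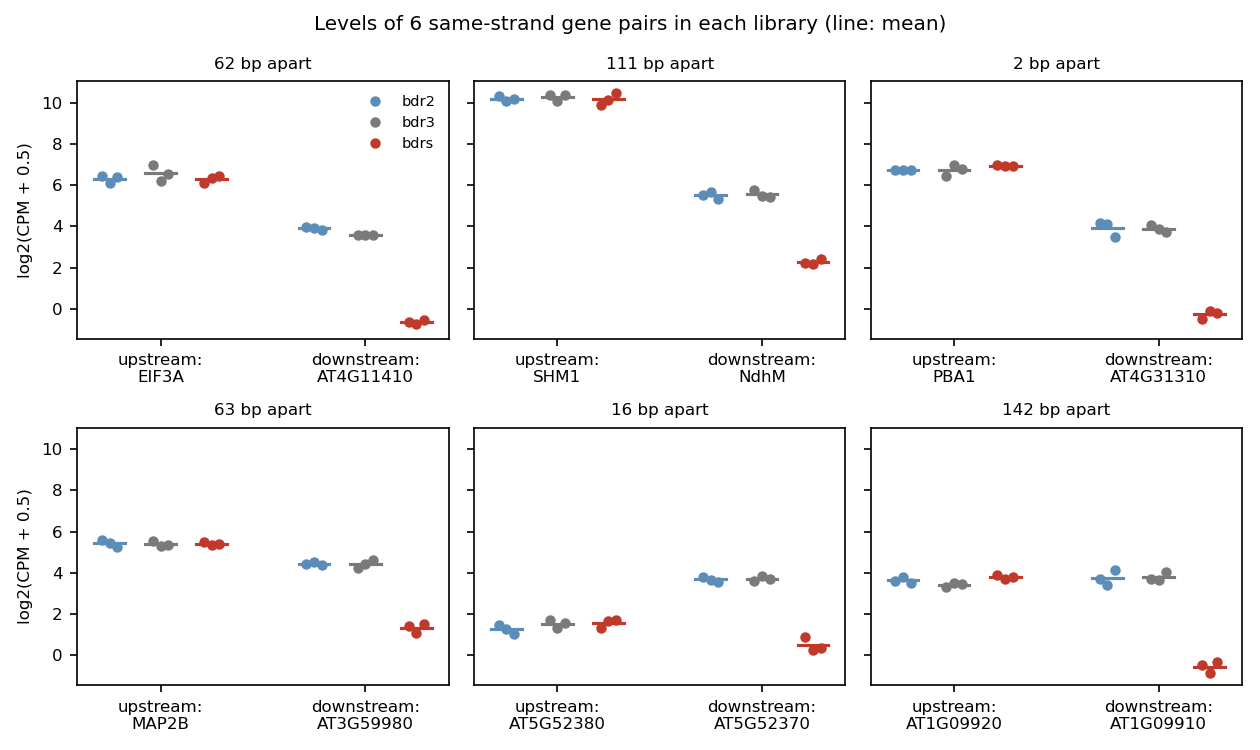
Level of the upstream and the downstream gene of 6 same-strand pairs in each of the 9 libraries, as log2(CPM + 0.5) on the vertical axis, with points for libraries and a line at the mean of each group. The groups overlap in every upstream gene, and the downstream genes of *bdrs* lie below all 6 control libraries in every pair.

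The other 6 of the 12 were AT2G14115, a noncoding RNA gene (log2 fold change −4.73), AT1G20816 (−3.97), annotated as an outer envelope pore-like protein, the phosphoglycerate mutase family gene AT3G52155 (−3.86), AT1G79740 of the hAT transposon superfamily (−3.75), *RSY3* (−3.59) and the extensin-like gene AT5G59170 (−3.21). Their edgeR adjusted p ran from 4.38e-07 (AT3G52155) to 1.20e-04 (AT5G59170). In *bdr1*, AT3G52155 at 9.62 CPM and AT5G59170 at 2.03 CPM also lay below every control library. AT2G14115, AT1G20816, AT1G79740 and *RSY3* overlapped the controls there. AT1G20816 overlaps its neighbour AT1G20810 by 4 bp and AT1G79740 overlaps AT1G79730 on its own strand. AT2G14115, *RSY3* and AT3G52155 overlap a gene on the other strand, so that reads of these 5 genes cannot be assigned with certainty.

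Over the whole set, 463 of the 589 lower genes with a known neighbour were tandem (78.6%, Wilson 95% interval 75.1% to 81.7%), against 50.4% of 19514 tested genes and 55.8% of 523 higher genes. The median distance of the tandem lower genes was 93 bp, with quartiles of 19 and 284 bp, against 554 bp for all tested tandem genes and 1081 bp for the higher ones. The higher genes thus lay farther from their neighbours than tested genes in general. Of the 417 tandem neighbours of lower genes that were themselves tested, 8 were lower and 2 higher, and their median log2 fold change was 0.00. In the controls these neighbours had a median level of 12.3 RPKM, against 6.50 RPKM for the tandem neighbours of all tested genes. Without *bdrs* 1, which added genes to the lower set, the tandem share was 72.2% and the median distance 139 bp. Genes and intervals here are counted over the annotation, and genes are not replicates.

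The share of genes called lower fell step by step with distance in tandem genes, and no such order was seen in the others. Among the 820 tested tandem genes at 0 to 50 bp, 14.1% were lower (Wilson interval 11.9% to 16.7%), followed by 11.6% at 51 to 100 bp, 6.78% at 101 to 250 bp and 3.22% at 251 to 500 bp. From 501 bp outward the share was 1.40% to 2.00%, below the 3.03% of all tested genes. Where the neighbour lay on the opposite strand, 1.74% of 344 genes were lower at 0 to 50 bp and 0.243% to 2.08% in the bins beyond. The median log2 fold change of the closest tandem bin was −0.13 and that of the closest opposite-strand bin 0.01. For *bdr2* against *bdr3* no bin had a median outside −0.002 to 0.016. The share called higher in tandem genes ran from 1.34% at 0 to 50 bp to 4.82% at 1001 to 2000 bp, and with an opposite-strand neighbour it ran from 0.872% at 0 to 50 bp to 3.36% beyond 2000 bp, so that this rise was seen in both arrangements.

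**Figure D2:**
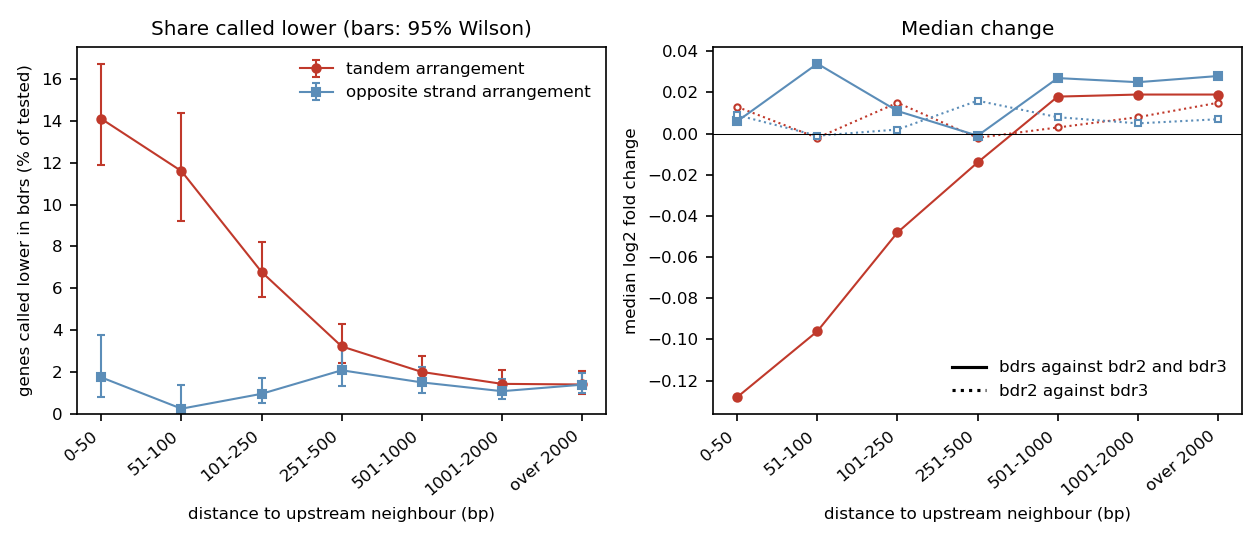
Left, share of tested genes called lower in *bdrs* (vertical axis, %, bars 95% Wilson intervals) by distance to the upstream neighbour (horizontal axis, bp), for tandem genes (circles) and genes with an opposite-strand neighbour (squares). Right, median log2 fold change in the same bins, solid for *bdrs* against *bdr2* and *bdr3* and dotted for *bdr2* against *bdr3*. The tandem share falls from 14.1% to 1.40%, while the opposite-strand share stays at or below 2.08%.

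The level of the upstream gene also moved with the share of lower genes. Genes with a neighbour at 0 to 500 bp were split by the neighbour's control level into 3 classes, below 3.83 RPKM, up to 12.7 RPKM and above. Of the tandem genes 4.19% of 1121 were lower in the first class, 9.97% of 1073 in the second and 15.3% of 1049 in the third. The median log2 fold changes of these classes were −0.02, −0.09 and −0.14. In the third class each library was also set against the control mean, and the class median was −0.16 in *bdrs* 1, −0.15 in *bdrs* 2 and −0.12 in *bdrs* 3, against −0.001 to 0.023 in the 6 control libraries. Genes with an opposite-strand neighbour in the third class were lower in 1.13% of 706 cases, with a median of 0.01.

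Some lower tandem genes belong to photosynthesis and respiration. Of 17 genes of the chloroplast NADH dehydrogenase-like complex, only *NdhM* and *PNSL1* fell, and the median of the 17 was −0.20 against 0.001 for all tested genes. *PNSL1* (AT2G39470), a subunit of the lumenal side, stood at 19.2, 23.6 and 29.6 CPM in *bdrs* and 88.1 to 119 CPM in the controls (−2.18 ± 0.16, edgeR adjusted p = 1.37e-06). Of 20 Calvin cycle genes, *GAPB* and *PGK1* fell, and the median was −0.06. Of all tested genes 3.03% fell. *GAPB*, a glyceraldehyde-3-phosphate dehydrogenase subunit gene, stood at 1517, 1582 and 1878 CPM in *bdrs* and 2319 to 3035 CPM in the controls (−0.75 ± 0.16, edgeR adjusted p = 0.0103), and *PGK1*, the phosphoglycerate kinase gene, at 756 to 955 CPM and 1115 to 1505 CPM (−0.67 ± 0.16, edgeR adjusted p = 0.0185). Neither group of libraries overlapped the other in these genes. Without *bdrs* 2 the calls of *GAPB* and *PGK1* were lost (edgeR adjusted p = 0.0981 and 0.164), and that of *PGK1* also without *bdrs* 1 (0.0514).

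All 4 of these genes had a tandem neighbour within 111 bp. *RPL23AA* lies 56 bp before *PNSL1* and stood at 0.04 ± 0.15, AT1G42960 lies 54 bp before *GAPB* (−0.04 ± 0.13) and *SDRB* 13 bp before *PGK1* (0.04 ± 0.14). *NDB1*, an external NAD(P)H dehydrogenase gene of mitochondria, fell from 13.9 to 17.7 CPM in the controls to 6.89, 9.02 and 9.16 CPM in *bdrs* (−0.91 ± 0.14, edgeR adjusted p = 0.00107). It begins 63 bp beyond *EMB1923* (0.10 ± 0.16). The stretches of 3 of them are shown, since they join a lower photosynthetic or respiratory gene to an upstream gene that did not pass the test.
RPL23AA to PNSL1 (chr2:16476142-16476197, plus strand): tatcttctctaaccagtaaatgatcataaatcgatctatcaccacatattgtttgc
AT1G42960 to GAPB (chr1:16127299-16127352, plus strand): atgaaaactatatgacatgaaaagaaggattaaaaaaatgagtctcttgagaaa
EMB1923 to NDB1 (chr4:13992147-13992209, plus strand): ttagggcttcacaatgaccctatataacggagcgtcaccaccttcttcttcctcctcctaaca
None of the 3 holds TATAAA. *GAPB* at 1502 RPKM in the controls was about 10-fold above the 153 RPKM of AT1G42960, whereas *NDB1* at 5.70 RPKM lay below the 22.7 RPKM of *EMB1923*, so that the lower genes were found on either side of their neighbours in level.

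A second set of lower genes came from the seed. Oil body, late embryogenesis abundant (LEA) and storage protein genes are expressed as the seed matures and dries and are shut down as the seedling grows. All 7 oil body genes, 13 of 17 LEA genes and 3 of 7 storage protein genes fell in *bdrs*, where 3.03% of all tested genes fell. Most of the seed genes that fell had no close tandem neighbour. Bulk RNA of seedlings cannot tell fewer cells of a type from less RNA per cell. The summed level of 7 oil body genes was 90.6 to 200 CPM in the 6 control libraries and 56.9, 34.2 and 31.1 CPM in *bdrs* 1, 2 and 3. That of 17 LEA genes was 303 to 453 CPM and 164, 128 and 118 CPM, and that of 7 storage protein genes 279 to 738 CPM and 201, 142 and 90.2 CPM. The *bdrs* libraries lay below all control libraries in all 3 sums, the last of which is mostly *CRA1* and *CRC*. Beside them, the summed level of 19 root markers was 242 to 263 CPM in *bdrs* and 218 to 317 CPM in the controls, and none of these 19 was called.

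All 7 tested oil body genes fell, with a median log2 fold change of −1.69. *OLEO2*, an oleosin gene that coats oil bodies, stood at 29.7, 18.3 and 19.2 CPM in *bdrs* and 52.0 to 128 CPM in the controls (−2.04 ± 0.26, edgeR adjusted p = 1.45e-04). *OLEO1* stood at 12.7, 5.95 and 4.13 CPM against 15.6 to 30.7 CPM (−1.74 ± 0.30, edgeR adjusted p = 0.00234), and *bdrs* 1 lay nearest to the controls. The oleosin gene AT3G01570 fell by 1.69 on the log2 scale and AT1G48990, at 0.206 CPM in *bdrs*, by 2.24. Without *bdrs* 2, 3 of the 7 remained called (*OLEO1*, *OLEO2* and AT3G01570), and without *bdrs* 3 or without *bdr3* 2, 4 did.

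Of 17 LEA genes, 13 fell and 4 did not pass the test, and the median was −1.37. AT3G15670 stood at 16.9, 14.2 and 17.4 CPM in *bdrs* and 39.3 to 49.7 CPM in the controls (−1.48 ± 0.13, edgeR adjusted p = 7.43e-06). *ECP63* stood at 5.33, 5.42 and 5.69 CPM against 13.0 to 21.4 CPM (−1.68 ± 0.17), AT3G17520 fell by 1.88 and *PER1*, a peroxiredoxin gene of dry seeds kept in this list, by 2.00 on the log2 scale. These 13 calls were kept in each alternative fit, also without any single library. Among storage proteins the cruciferin genes *CRA1* and *CRC* fell. *CRA1* stood at 102, 72.4 and 45.9 CPM in *bdrs* and 162 to 438 CPM in the controls (−2.07 ± 0.28, edgeR adjusted p = 2.61e-04), and *CRC* at 37.5 to 86.1 CPM against 103 to 282 CPM (−1.63 ± 0.30). The albumin gene *SESA5* (−1.23, edgeR adjusted p = 0.0279) lost its call without any of 6 single libraries (edgeR adjusted p up to 0.127), and the other 4 of 7, *SESA1*, *SESA2*, *SESA3* and AT1G03880, did not pass the test (−0.62, −0.48, 0.14 and 0.66).

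Of 10 tested regulators of seed maturation, *ABI3* and *ABI5* fell and the median was −0.01, where 3.03% of all tested genes fell. *ABI3*, a transcription factor that turns on seed protein genes, stood at 2.52, 1.78 and 1.74 CPM in *bdrs* and 6.18 to 9.82 CPM in the controls (−2.01 ± 0.21, edgeR adjusted p = 2.67e-05). *ABI5*, a bZIP factor that binds ACGT elements under abscisic acid, stood at 1.74 to 2.21 CPM against 3.51 to 4.52 CPM (−1.01 ± 0.18, edgeR adjusted p = 0.0034). Both sets of libraries were apart. Several genes of the seed and of abscisic acid were also low in the *bdr1* single mutant, with all 18 libraries scaled together. *ABI5* stood at 1.84 CPM in *bdr1* and 1.97 CPM in *bdrs*, *ECP63* at 5.80 and 5.39 CPM, *RD29B* at 34.4 and 29.8 CPM and *RAB18* at 95.8 and 94.4 CPM (n = 3 each), and the libraries of *bdr1* and *bdrs* overlapped in these 4 genes. They also overlapped in *CRC* (72.8 and 60.0 CPM), *OLEO1* (14.6 and 7.49 CPM), AT3G01570, *SESA5* and AT1G48990. *OLEO2* stood at 59.4 and 22.1 CPM and *ABI3* at 3.67 and 1.98 CPM, with no overlap. *CRA1* (148 and 72.3 CPM), AT3G15670, AT3G17520 and *PER1* did not overlap either. In each of these genes the *bdr1* mean lay below the means of both *bdr2* and *bdr3*. The difference between *bdr1* and *bdrs* was not tested, and the lower levels are not shown to belong to the triple mutant alone. *FUS3*, *LEC1* and *LEC2*, other master regulators of the seed, were too low to be tested.

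**Figure D3:**
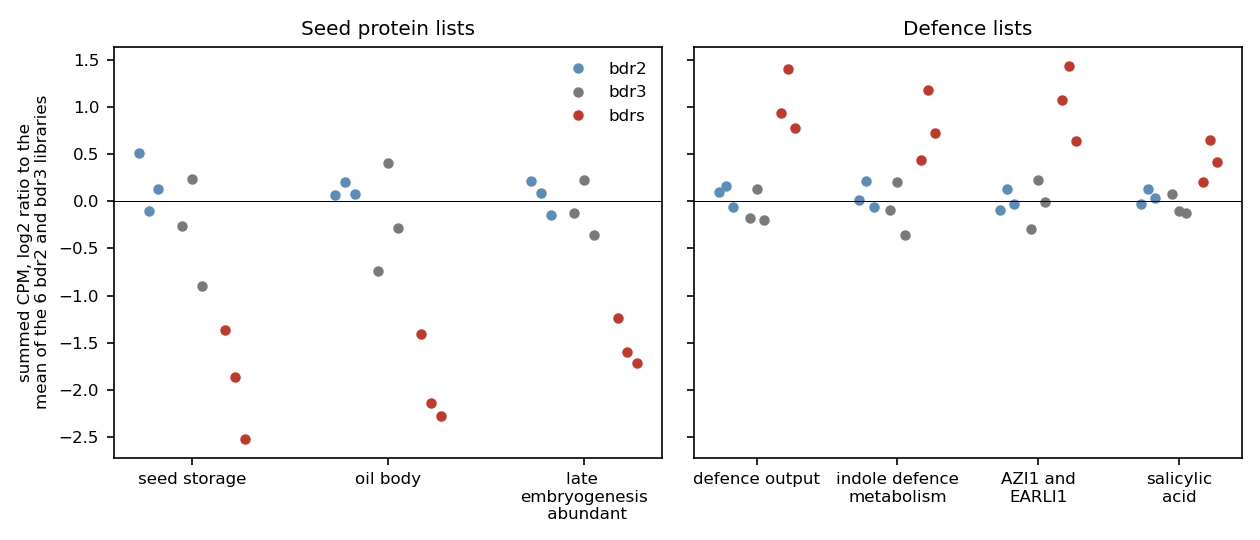
Summed CPM of the tested members of 3 seed lists (left) and 4 defence lists (right) in each library, as the log2 ratio to the mean of the 6 *bdr2* and *bdr3* libraries, with 1 point per library. The *bdrs* libraries lie below every control library in the 3 seed lists and above every control library in the 4 defence lists, and *bdrs* 2 is the highest in each defence list.

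The promoters of lower genes were searched for an element of abscisic acid response. The G-box CACGTG, a palindrome read by bZIP factors such as ABI5, was present in the 250 bases before the gene start in 23.1% of the 264 lower genes outside the close tandem arrangement, against 7.92% of 15273 tested genes so placed. Among the 325 lower genes whose tandem neighbour ended 0 to 500 bp away it was present in 8.62%, against 6.46% of all genes so arranged and 7.60% of all tested genes. Of the 13 LEA genes that fell 10 held a G-box, as did 2 of the 4 that did not pass the test, and 2 of the 7 oil body genes did. The promoters of 3 lower seed genes with 2 G-boxes each are shown from RefSeq TAIR10.1, ending at the base before the gene start, with CACGTG in capitals.
OLEO1 (chr4:12900180-12900429, plus strand): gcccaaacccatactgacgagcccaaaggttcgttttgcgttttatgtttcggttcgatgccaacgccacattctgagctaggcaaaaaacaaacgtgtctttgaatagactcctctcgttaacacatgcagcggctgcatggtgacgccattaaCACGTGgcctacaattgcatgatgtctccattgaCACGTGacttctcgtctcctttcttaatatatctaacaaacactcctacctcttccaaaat
AT5G44310 (chr5:17849537-17849786, minus strand): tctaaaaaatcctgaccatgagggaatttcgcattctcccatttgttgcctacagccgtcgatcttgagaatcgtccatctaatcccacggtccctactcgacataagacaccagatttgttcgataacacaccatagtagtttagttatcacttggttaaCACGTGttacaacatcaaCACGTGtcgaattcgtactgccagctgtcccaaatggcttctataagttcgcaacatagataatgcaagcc
AT4G21020 (chr4:11227937-11228186, plus strand): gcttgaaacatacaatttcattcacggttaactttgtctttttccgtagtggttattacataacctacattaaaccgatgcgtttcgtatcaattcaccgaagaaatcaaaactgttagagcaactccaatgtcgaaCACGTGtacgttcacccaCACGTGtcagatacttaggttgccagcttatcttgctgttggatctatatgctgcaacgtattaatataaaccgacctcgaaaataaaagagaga
In AT5G44310 and AT4G21020, both LEA genes, the 2 G-boxes lie 12 bases apart, and in *OLEO1* 28 bases apart. AT5G44310 fell from 6.09 ± 0.93 to 1.83 ± 0.29 CPM (SD, n = 6 and 3, edgeR adjusted p = 3.48e-05) and AT4G21020 from 9.15 ± 1.52 to 2.62 ± 0.57 CPM (edgeR adjusted p = 4.05e-05).

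Genes of abscisic acid, drought and cold gave 5 lower of 13, where 3.03% of all tested genes were lower, with a median of −0.57. The list was mixed, with 4 genes above 0, none of them called. These were *CBF2* (1.62, edgeR adjusted p = 0.0605), *COR15A* (1.43), *P5CS1* (0.43) and *NCED3* (0.16). The summed level of the 13 genes overlapped between groups, at 598 to 908 CPM in *bdrs* and 723 to 1004 CPM in the controls. The LEA-like gene *RD29B* stood at 20.7, 30.3 and 39.7 CPM in *bdrs* and 50.2 to 93.6 CPM in the controls (−1.30 ± 0.22, edgeR adjusted p = 0.00175), the dehydrin gene *LTI30* at 9.83 to 15.9 CPM against 19.5 to 37.2 CPM (−1.07 ± 0.20, edgeR adjusted p = 0.00457), and *ADH1*, an alcohol dehydrogenase gene, and *RAB18*, a dehydrin gene, fell by 1.02 and 0.69 on the log2 scale. *KIN2* was the fifth (−0.57), and its call was lost in 9 alternative fits, among them all 18 libraries (edgeR adjusted p = 0.0822) and the controls as 1 group (0.0563). That of *RAB18* was lost with all 18 libraries (edgeR adjusted p = 0.0539) and without *bdrs* 1 (0.0563). Without *bdrs* 2, *RD29B* and *LTI30* remained called. Of 9 clade A protein phosphatase genes, which damp abscisic acid signalling, *HAI1* and *HAI3* fell. *HAI1* stood at 26.1, 20.7 and 25.6 CPM in *bdrs* and 45.6 to 57.3 CPM in the controls (−1.16 ± 0.13, edgeR adjusted p = 5.32e-05). *HAI3* (−1.16, edgeR adjusted p = 0.0404) lost its call in 7 of the 9 fits that left out a library, and the median of the 9 genes was 0.01.

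Defence genes were higher in *bdrs*. Of 10 tested genes of defence output 7 rose and none fell, where 2.68% of all tested genes rose, with a median of 1.01. The call of 1 of the 7, *WRKY33*, was lost in 6 of the fits that left out a library (edgeR adjusted p up to 0.32). *FRK1*, a receptor kinase gene induced by bacterial flagellin, stood at 1.70, 4.41 and 1.02 CPM in *bdrs* and 0 to 0.421 CPM in the controls (4.22 ± 0.58, edgeR adjusted p = 3.03e-04). *SAG13*, a senescence-associated gene, stood at 2.30, 24.4 and 3.47 CPM against 0.167 to 1.12 CPM (4.23 ± 0.66, edgeR adjusted p = 9.75e-04), and without *bdrs* 2, in which it is highest, its value was 2.41 (edgeR adjusted p = 0.00527). That of *FRK1* was then 3.36. *FRK1* overlaps AT2G19180 on the other strand. The membrane protein gene *MLO12* (1.63 ± 0.19), the chitinase gene *PR3* (1.09 ± 0.17) and the pathogenesis-related gene *PR4* (0.94 ± 0.14) rose by less, with *PR4* at 89.5 to 117 CPM in *bdrs* and 41.0 to 67.5 CPM in the controls. *PR1* and *PR2*, the usual reporters of salicylic acid, were too low to be tested.

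Indole defence metabolism, which makes camalexin and related compounds from tryptophan, gave 4 higher of 9, with a median of 1.33. Of all tested genes 2.68% rose. *CYP71A12* stood at 14.7, 44.8 and 23.3 CPM in *bdrs* and 0.184 to 2.11 CPM in the controls (4.81 ± 0.38, edgeR adjusted p = 2.54e-06). Its near copy *CYP71A13* was too low to be tested, and reads shared by the pair are uncertain. *CYP81F2*, which hydroxylates indole glucosinolates, stood at 8.96, 21.97 and 12.8 CPM against 1.41 to 2.32 CPM (2.96 ± 0.25, edgeR adjusted p = 4.19e-06), *CYP82C2* at 4.52, 16.3 and 7.06 CPM against 0 to 1.76 CPM (3.54 ± 0.52, edgeR adjusted p = 5.60e-04), and the glutathione transferase gene *GSTF6* at 50.6, 149 and 62.9 CPM against 10.2 to 22.7 CPM (2.40 ± 0.29). In all 4 genes *bdrs* 2 was highest and the groups did not overlap. Without *bdrs* 2 the values of *CYP82C2* and *GSTF6* were 2.84 and 1.78, and all 4 calls were kept. *CYP79B2*, *CYP79B3*, *MYB51*, *GGP1* and *PAD3* did not pass the test (0.25 to 1.33).

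The W-box, the element bound by WRKY factors, was searched on both strands as TTGACC and also as TTGACT. It was present in the 250 bases before the start of 48.9% of 523 higher genes, 24.6% of 589 lower genes and 28.1% of 19514 tested genes, and 3 or more copies were present in 4.78% of the higher and 0.912% of the tested genes. The promoters of 3 higher genes are shown with the matches in capitals, as *CYP82C2* holds 3 copies and *CYP81F2* and *FRK1* hold 2 each.
CYP82C2 (chr4:15462100-15462349, plus strand): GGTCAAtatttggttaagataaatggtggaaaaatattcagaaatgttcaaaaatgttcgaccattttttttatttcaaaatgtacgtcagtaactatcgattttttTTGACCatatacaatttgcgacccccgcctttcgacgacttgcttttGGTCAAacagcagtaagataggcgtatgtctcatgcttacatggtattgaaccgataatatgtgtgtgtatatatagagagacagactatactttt
CYP81F2 (chr5:23187590-23187839, plus strand): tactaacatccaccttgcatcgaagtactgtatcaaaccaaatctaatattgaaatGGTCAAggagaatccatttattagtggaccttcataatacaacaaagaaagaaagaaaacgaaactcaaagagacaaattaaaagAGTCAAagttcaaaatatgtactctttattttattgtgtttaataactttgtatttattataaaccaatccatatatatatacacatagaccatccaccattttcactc
FRK1 (chr2:8329945-8330194, minus strand): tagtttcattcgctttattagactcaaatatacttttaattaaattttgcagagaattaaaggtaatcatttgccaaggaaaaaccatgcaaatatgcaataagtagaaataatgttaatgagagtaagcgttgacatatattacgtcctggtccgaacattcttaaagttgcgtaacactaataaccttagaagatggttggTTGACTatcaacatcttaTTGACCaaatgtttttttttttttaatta
Among higher list members the W-box was present in 3 of 7 for defence output, 3 of 4 for indole metabolism and 1 of 6 for salicylic acid. It was present in 1 of 4 for the AZI1 cluster, 2 of 5 for jasmonate and 4 of 4 for mitochondrial stress. *SAG13* and *CYP71A12*, which rose as far, hold none in this window. No match says only that these letters are not in these 250 bases.

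On chromosome 4, 4 genes of a tandem array rose while 2 at its end did not pass the test. The array codes for small lipid-transfer-like proteins, among them AZI1, which acts in primed defence. *AZI1* stood at 98.2, 120 and 62.9 CPM in *bdrs* and 26.8 to 36.0 CPM in the controls (1.56 ± 0.16, edgeR adjusted p = 3.22e-05), *EARLI1* at 37.5 to 68.9 CPM against 5.87 to 15.7 CPM (2.38 ± 0.24), *AZI3* at 15.6, 26.0 and 4.43 CPM against 1.17 to 3.37 CPM (2.94 ± 0.40) and AT4G12500 at 9.77, 10.2 and 5.15 CPM against 0.0612 to 0.982 CPM (4.39 ± 0.34, edgeR adjusted p = 1.75e-06). *bdrs* 3 was the lowest of the triple mutants in each, and without *bdrs* 2 *AZI3* stood at 2.30. AT4G12510 and AT4G12520 stood at −0.50 and −0.57 (edgeR adjusted p = 0.327 and 0.121). The genes resemble one another and uniquely aligned reads alone were counted, so levels of single members are uncertain.

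Genes of salicylic acid synthesis and signalling gave 6 higher of 13, where 2.68% of all tested genes rose, with a median of 0.46. *CBP60g*, a regulator of salicylic acid synthesis, stood at 4.81, 13.1 and 8.80 CPM in *bdrs* and 1.50 to 3.27 CPM in the controls (1.75 ± 0.27, edgeR adjusted p = 8.03e-04). *FMO1*, which makes N-hydroxypipecolic acid, rose by 2.67, *NIMIN2* by 1.83 and *PBS3*, which conjugates isochorismate, by 2.31 on the log2 scale, all at mean levels under 2 CPM in *bdrs*. *WRKY70* and *SAG101* were the others. Without *bdrs* 2, *CBP60g* alone of the 6 remained called, the adjusted p of the other 5 was 0.0618 to 0.245, and *PBS3* stood at 1.60. Jasmonate genes gave 5 higher of 20, against the same 2.68% of all tested genes, with a median of 0.43. The lipoxygenase gene *LOX4* stood at 2.00, 4.94 and 9.46 CPM in *bdrs* and 1.143 to 1.89 CPM in the controls (1.97 ± 0.35, edgeR adjusted p = 0.0025). *LOX3* (1.16), *OPR3* (0.78) and *AOC3* (0.71) rose with overlapping groups, as *bdrs* 1 lay within the control range, and without *bdrs* 3 these 3 calls were lost and *LOX4* stood at 1.34. Only 1 of the 5 calls was kept in every alternative fit. *OPR3*, *AOC3* and *JAZ2*, the fifth gene, also lost theirs without single control libraries. Without *bdr2* 1 their edgeR adjusted p was 0.0724, 0.106 and 0.0714. The count of jasmonate genes that were higher was 9 with all 18 libraries, 9 with DESeq2, 10 without *bdrs* 1 and 2 without *bdrs* 3.

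**Figure D4:**
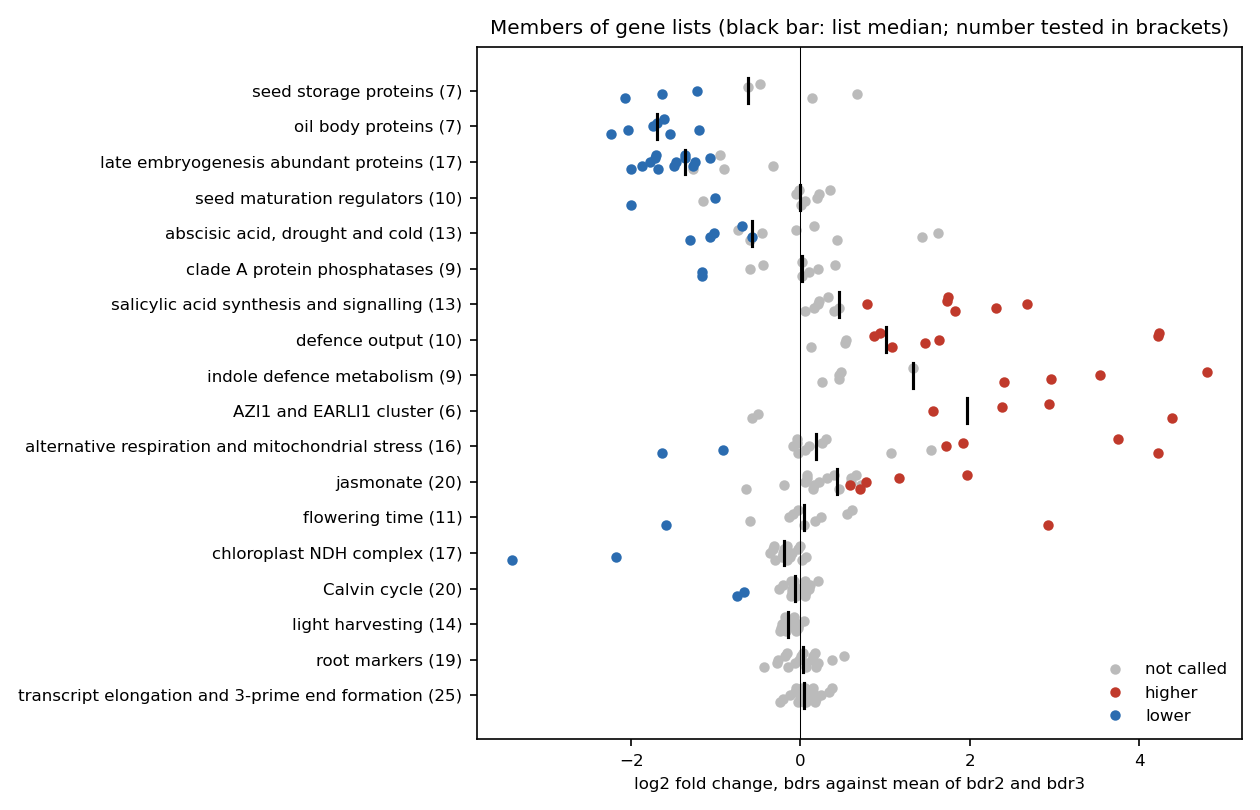
Log2 fold change (horizontal axis) of each tested member of 18 gene lists in *bdrs* against the mean of *bdr2* and *bdr3*, with called members coloured by direction, a bar at the median of each list and the number of tested members in brackets. Oil body and LEA genes lie left of 0 and the salicylic acid, defence output and indole genes right of 0, the AZI1 cluster has 2 of 6 genes left of 0, and the light-harvesting, root and elongation lists hold no called gene.

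Mitochondrial stress genes moved both ways. Of 16 tested genes of alternative respiration and mitochondrial stress 4 rose and 2 fell. Of all tested genes 2.68% rose and 3.03% fell. *NDB4*, an external NADH dehydrogenase gene, stood at 2.07, 2.59 and 1.98 CPM in *bdrs* and 0.0651 to 0.238 CPM in the controls (4.22 ± 0.33, edgeR adjusted p = 2.45e-06). *AT12CYS-2*, a small mitochondrial cysteine-rich protein gene induced by stress, stood at 4.89, 4.03 and 4.91 CPM against 0.112 to 0.571 CPM (3.75 ± 0.28, edgeR adjusted p = 1.47e-06). These 2 genes varied little among the triple mutants, unlike the carrier gene *DIC2* at 9.55, 29.3 and 40.2 CPM against 5.80 to 8.98 CPM (1.92 ± 0.30). *AOX1A*, the usual marker of alternative respiration, stood at 31.3 CPM in *bdrs* and 33.3 CPM in the controls (−0.09 ± 0.12, edgeR adjusted p = 0.837).

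The other genes with the largest rises were low or silent in both single mutants. AT5G38910, a germin-like cupin gene, stood at 4.52, 9.93 and 13.2 CPM in *bdrs* and 0 to 0.281 CPM in the controls (6.94 ± 0.44, edgeR adjusted p = 4.50e-07). AT1G26390, a berberine bridge enzyme-like gene, stood at 12.6, 27.5 and 14.4 CPM against 0.0612 to 1.96 CPM (5.27 ± 0.40, edgeR adjusted p = 1.52e-06), and the extensin-like gene AT1G26240 at 1.41, 8.68 and 5.87 CPM against 0 to 0.351 CPM (6.09 ± 0.61). The fitted values of such genes depend on a few control reads: AT5G38910 stood at 7.89 without *bdr3* 1, and AT1G26240 at 7.06 without *bdr3* 2 and 5.45 with the controls as 1 group. AT2G23270 stood at 1.04 to 4.01 CPM against 0 to 0.351 CPM (4.16 ± 0.51). AT3G43680 gave 15, 24 and 14 reads in *bdrs* and none in the 6 controls, at least 32.8-fold higher against a floor of 3 counts over the 6 libraries. AT3G55790 gave 89 reads in *bdrs* and 1 in the controls, a ratio of 165 with an exact 95% interval of 28.9 to 6590, and AT1G63560, with no position in the annotation used here, gave 64 and 2, a ratio of 59.4 (15.8 to 501). Floor and intervals cover counting error only.

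In the flowering time list 11 genes were tested, of which 1 rose and 1 fell. The first was *FLC*, at 3173382 to 3179448 of chromosome 5, whose product holds back flowering. It stood at 51.0, 35.6 and 41.4 CPM in *bdrs*, at 5.97 to 9.57 CPM in *bdr2* and at 2.88 to 5.36 CPM in *bdr3*. The triple mutant lay above every control library, and the log2 fold change was 2.92 ± 0.19 (edgeR adjusted p = 6.81e-07). It was 2.57 against *bdr2* and 3.28 against *bdr3*. In the *bdr1* single mutant *FLC* stood at 9.24 CPM (n = 3). *SOC1*, a floral promoter that FLC represses, stood at 1.26, 3.02 and 3.47 CPM in *bdrs* and 5.86 to 10.7 CPM in the controls (−1.59 ± 0.28, edgeR adjusted p = 0.0025). The relatives of *FLC*, *FLM*, *MAF2*, *MAF3* and *MAF4*, did not pass the test (−0.03, 0.24, 0.04 and 0.55), and antisense transcripts lie over *FLC*, whose reads cannot be told from its own without the strand of counting.

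No member was called in the list of elongation and 3′ end processing factors (25 genes, median 0.04), in 14 light-harvesting genes (median −0.15) or in 19 root markers (median 0.03). At an unadjusted p under 0.05 there were 2967 genes in the whole contrast.

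The 2 controls were close to each other. *bdr2* against *bdr3* gave 3 called genes (0.0153%), of which 1 was higher (0.00509%) and 2 were lower (0.0102%) in *bdr2*, and 256 at an unadjusted p under 0.05, and the median log2 difference was 0.006. These were *BDR2* itself (−1.32), *MRD1* (AT1G53480) and AT5G28870, an uncharacterized gene that gave 35, 27 and 57 reads in *bdr2* and none in *bdr3* or *bdrs*. Loci that stood apart in the wild-type line left the comparison. AT3G01345 stood at 83.7 ± 11.5 CPM (SD, n = 3, all 18 libraries scaled together) in the wild type and at 0.936, 2.504 and 0.867 CPM in *bdr2*, *bdr3* and *bdrs*, and *MRD1* at 47.7 CPM and at 1.29, 4.88 and 1.56 CPM. In the pooled contrast AT3G01345 (−0.82, edgeR adjusted p = 0.102), *MRD1* (−0.67, 0.132) and *HEI10* (−0.16, 0.900), which overlaps *MRD1* on the other strand, did not pass the test. Against *bdr3* alone AT3G01345 (−1.52, edgeR adjusted p = 0.00478) and *MRD1* (−1.62, 9.08e-04) were lower, so that the loci did not drop out of that contrast.

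**Figure D5:**
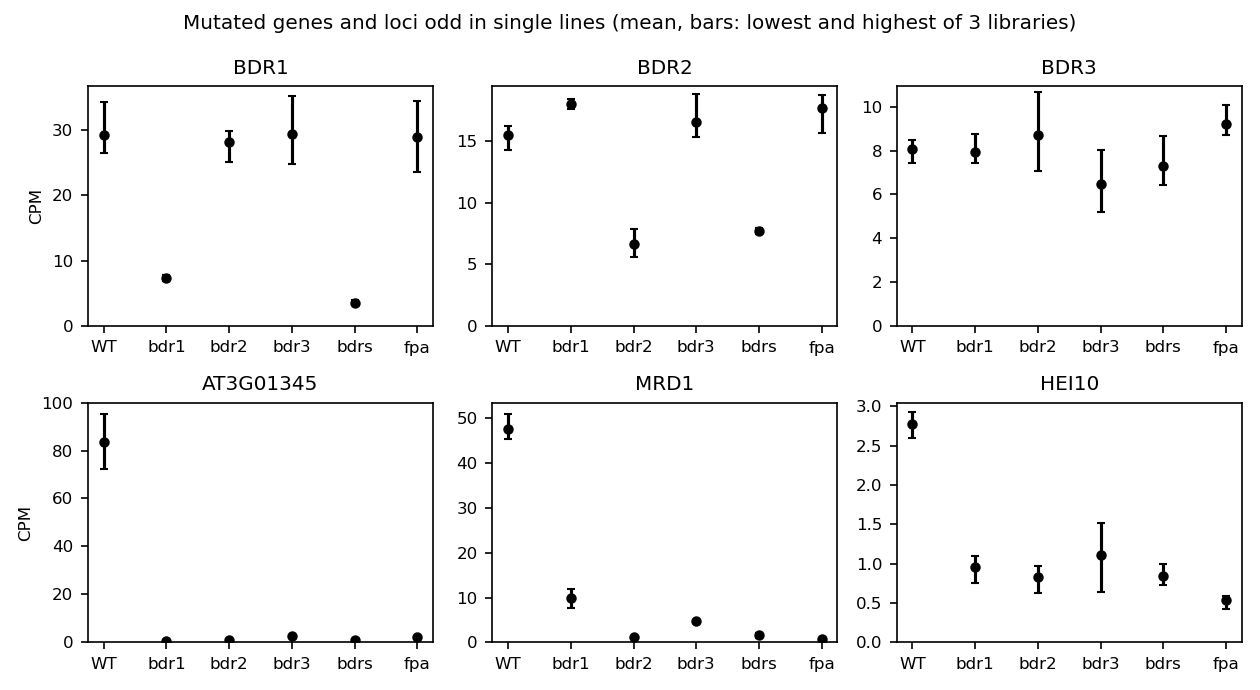
Mean CPM of the 3 mutated genes (top) and 3 loci that stand apart in the wild-type line (bottom) in the 6 groups of the series, with bars from the lowest to the highest of 3 libraries. AT3G01345 and *MRD1* reach 83.7 and 47.7 CPM in the wild type and stay under 5 CPM in *bdr2*, *bdr3* and *bdrs*.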

How the data were processed

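Poly(A) RNA of whole seedlings was sequenced from stranded libraries. Per the methods and the submitters' processing notes, the authors aligned reads with STAR 2.5.2b, kept uniquely aligned reads (SAMtools 1.3.1) and counted them per TAIR10 gene with featureCounts. The deposited counts are not normalized and cover 33602 genes. A second table, normalized by the authors, was not used. All columns were assigned by name.

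In R 4.3.3, edgeR 4.0.16 gave the tests of the 9 libraries by its quasi-likelihood method, after filterByExpr and TMM scaling. The model had 1 coefficient per group, no replicate block and 6 residual degrees of freedom, and p-values were adjusted by Benjamini-Hochberg over the 19640 genes left. The common biological coefficient of variation was 17.0%. DESeq2 1.42.0, RLE scaling, no filter on low counts, all 18 libraries, the controls as 1 group, the replicate block and leaving out each library were alternatives. The fit was tested on simulated data, which held fewer changed genes than were called here. It called 13.4% of 67 genes changed 1.5-fold, 73.1% of 67 changed 2-fold and 100% of 66 changed 4-fold. Of its 131 calls 7 were false. The changed genes of the simulation had a mean of at least 1 CPM. A gene that did not pass the test can therefore still have changed, also by 2-fold. Where libraries varied more, larger fitted values did not pass it either, such as the log2 fold change of 1.33 of *PAD3*. The pairs of libraries within a group differed by at least 12.9 chi-square per degree of freedom, so none was a copy.

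CPM use TMM-scaled library sizes, and RPKM divide by the exon length of the RefSeq TAIR10.1 annotation, which matched 32835 of 33323 nuclear genes. Its gene models are newer than those counted, so distances can differ. The upstream neighbour is the nearest annotated gene before the start on either strand, with an overlap as a negative distance. Sequences are from RefSeq TAIR10.1 (SciPy 1.17.1 gave the intervals).

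The genes, lists and lines compared were chosen with earlier results of these data known. Named genes are the mutated genes, the 12 highest and 12 lowest called genes with at least 1 CPM in 1 group and no overlap between groups, the 6 lower close tandem genes with the smallest p and their neighbours, up to 4 called members per list, *FLC*, *SOC1*, 3 line-specific loci and the genes called between *bdr2* and *bdr3*. Other list members, the neighbours of 4 photosynthetic and respiratory genes and the motifs were chosen after values were seen.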

Additional observations from a re-analysis of the deposited data

Results flagged for a closer look

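The change in *bdrs* differed between the 2 controls in 3 genes, by the direct edgeR test of *bdr2* against *bdr3*. *BDR2* was lower in *bdr2* than in *bdr3* by a log2 difference of −1.32, which is the gene mutated in *bdr2*. *MRD1* differed by −1.92, with 1.17 to 1.43 CPM in *bdr2* and 4.89 to 5.00 CPM in *bdr3*. AT5G28870 had 119 reads in *bdr2* and none in *bdr3*, and the fitted value of 8.33 depends on the prior count and is no bound. The edgeR adjusted p of the 3 genes was 0.0153.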

How the results depend on the processing

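The 8 counts of genes higher or lower, the tandem share and the median distance stayed within 1.5 times, or within their interval, with all 18 libraries, RLE scaling, no filter, DESeq2 and the replicate block, as did the pooled counts, share and distance with the controls as 1 group, which applies to these alone. The labels do not say that the replicate number marks a batch, and the libraries were not treated as paired. Same-numbered libraries of *bdr2* and *bdr3* correlated at 0.29 to 0.43, those of *bdrs* and a control at −0.36 to 0.32, and 3 of 9 libraries correlated best with their own number in both other groups. The share of light-harvesting counts was lowest in replicate 1 and highest in replicate 3 in all 6 groups, so that this share moved with the number. With the replicate block 601 genes were higher and 658 lower, and *JAZ2* lost its call (edgeR adjusted p = 0.0642). Leaving out 1 library gave 269 to 747 higher and 369 to 795 lower genes in the pooled contrast, 152 to 535 and 311 to 641 against *bdr2*, 197 to 524 and 297 to 627 against *bdr3*, and 0 to 1 and 0 to 3 between the controls, with a tandem share of 72.2% to 79.8% and a median distance of 78 to 139 bp. No called gene named here changed direction. Over all alternatives, among values of lists and of genes named by the rule above, 40 moved, 39 lost their call, 1 gained it and the others kept it. Lost calls of other list members are not among the 39. Without *bdrs* 2, 12 calls of the genes named by that rule were lost. Other list members also lost theirs: *KIN2* (edgeR adjusted p = 0.291), *WRKY33* (0.32), *WRKY70* (0.226), *SAG101* (0.245), *OLEO4*, *CLO1*, *CLO2* and *NDB3*. *BDR2* was called lower with all 18 libraries (edgeR adjusted p = 0.0439). Depth limits genes of few reads, such as AT3G43680 with 53 reads in all.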

Other observations

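Some gene families were looked at only after their values were seen, and are given as counts. Of 44 tested genes annotated as WRKY transcription factors 12 rose in *bdrs* and none fell, with a median log2 fold change of 0.23, where 2.68% of all tested genes rose and 3.03% fell. Among the 12, *WRKY70*, *WRKY46*, *WRKY33*, *WRKY28*, *WRKY48* and *WRKY18* overlapped the control libraries. *WRKY33* and *WRKY70* lost their calls without *bdrs* 2 (edgeR adjusted p = 0.32 and 0.226). Of 19 berberine bridge enzyme-like genes 7 rose and 1 fell, and of 19 VQ motif genes 6 rose and 1 fell. Of 17 chitinase genes, whose products cut fungal cell walls, 7 rose and 1 fell. The genes annotated as dehydrins, which protect drying cells, gave 5 lower and none higher of 8, with a median of −0.88. No test of a family was made.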
